A study of Mus musculus with 6 samples.

Results

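The 10 genes described here code for the core machinery of mitotic entry: the mitotic cyclins Ccna2, Ccnb1 and Ccnb2, their catalytic partner Cdk1, the inhibitory kinase Wee1, the activating phosphatases Cdc25b and Cdc25c, and the mitotic kinases Plk1, Aurka and Aurkb. They were taken by gene name, without use of their values, from a table of 55487 genes, and all 10 were found. RNA was measured in vascular endothelial cells (VECs) sorted from retinas of mouse pups at P7.5, with 3 libraries in each of 2 groups. Control pups were tdTomato FL/+;Pdgf-icreER, and Bmal1;CKO pups were Bmal1 FL/FL;tdTomato FL/+;Pdgf-icreER. Both groups were on a C57BL/6 J background and were injected with tamoxifen between P0.5 and P2.5. Both carried the tamoxifen-inducible Cre and the tdTomato reporter allele. By the stated genotypes they differed in the floxed Bmal1 alleles. Retinas of both groups were collected at noon (ZT6, that is, 6 hours after light onset), a single time of day. Litters and sort batches are not given in the sources used here. Cells positive for both GFP and tdTomato were collected at the sort as enriched VECs. The methods give 3 animals for each group, the same number as the libraries. The comparison asks whether the genes that drive entry into mitosis change when the clock activator Bmal1 is deleted from the growing retinal endothelium.

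CDK1 is the kinase that starts mitosis. It is active only when bound to a cyclin of the A or B type, and WEE1 holds the complex inactive by phosphorylating CDK1 until a CDC25 phosphatase removes that phosphate. PLK1 and Aurora A promote this switch and build the spindle, and Aurora B corrects the attachment of chromosomes to it. Most of these genes are transcribed late in the cell cycle, which makes their mRNA a readout of how many cells of a sample are dividing. Wee1 is known as a gene under control of the circadian clock, and retinal vessels of the first postnatal week grow by sprouting from dividing endothelial cells.

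Values are normalized counts, that is, reads per gene divided by a size factor for each library. The 6 libraries had 71145068 to 104017800 reads on genes. Libraries keep the numbers of the table, in which control libraries are 1 to 3 and Bmal1;CKO libraries 4 to 6. Fold changes are differences of log2(normalized count + 1), Bmal1;CKO minus control, fitted with limma-trend over the 20459 genes that had 10 reads or more in 3 libraries or more. The markers of endothelial cells were present in every library, but so were those of other cells. Over 14 endothelial markers the summed level was 196751 to 365213 normalized counts in control and 113289 to 246082 in Bmal1;CKO. Over 9 markers of microglia and macrophages it was 1386183 to 4103347 and 2013410 to 3985845. Over 12 markers of rod photoreceptors it was 888139.83 to 1176738.5 in control and 652244.74 to 1099517.5 in Bmal1;CKO, above the endothelial sums. All 14 endothelial markers had a negative fold change (median -0.50), 1 of them at an unadjusted p under 0.05. Over 8 markers of retinal progenitors, another dividing cell type of the neonatal retina, the sums were 10210 to 36929 in control and 38803 to 45407 in Bmal1;CKO. All 8 had a positive fold change, and in 5 of them the groups did not overlap, against 11.2% of all tested genes. Control library 1 carried much of that gap. The mean log2 level of the 8 was 6.33 there, against 9.73 to 11.01 in the other libraries, and the difference between the groups was 1.96 with it and 0.75 without it. The Bmal1 transcript itself, listed as Arntl, had 1700, 3489 and 2928 normalized counts in control and 1779, 2747 and 2415 in Bmal1;CKO, so the groups overlapped at the level of the whole gene. The table does not split a gene into exons. By droplet digital PCR of sorted endothelial cells, the paper reported significantly fewer Bmal1 copies in the mutant.

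None of the 10 genes differed between the groups at an adjusted p under 0.05. In the limma-trend fit with Benjamini-Hochberg adjustment the smallest adjusted p among them was 0.883, and 0 of all 20459 genes (0%) passed. At an unadjusted p under 0.05 there was 1 of the 10 genes, Ccnb1, which was lower in Bmal1;CKO. Of all tested genes 4.92% passed that threshold, 1.75% lower and 3.17% higher. Ccnb1 was also the only one of the 10 whose groups did not overlap, as was the case in 11.2% of all genes, 4.54% lower and 6.62% higher. A count of 1 in 10 does not set the genes apart from these shares. Of the 10 fold changes 9 were negative, where 43.4% of all tested genes had a negative one. Their median was -0.19, against 0.11 for all genes, and 8 of the 9 were smaller than 0.5 in size. With edgeR's quasi-likelihood test and limma-voom 0 of the 10 and 0 of all genes were called at the same FDR, and DESeq2's Wald test called 67 of all genes and 0 of the 10. In a sample of mixed cells, fewer dividing endothelial cells and less of these transcripts per cell cannot be told apart.

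**Figure D1:**
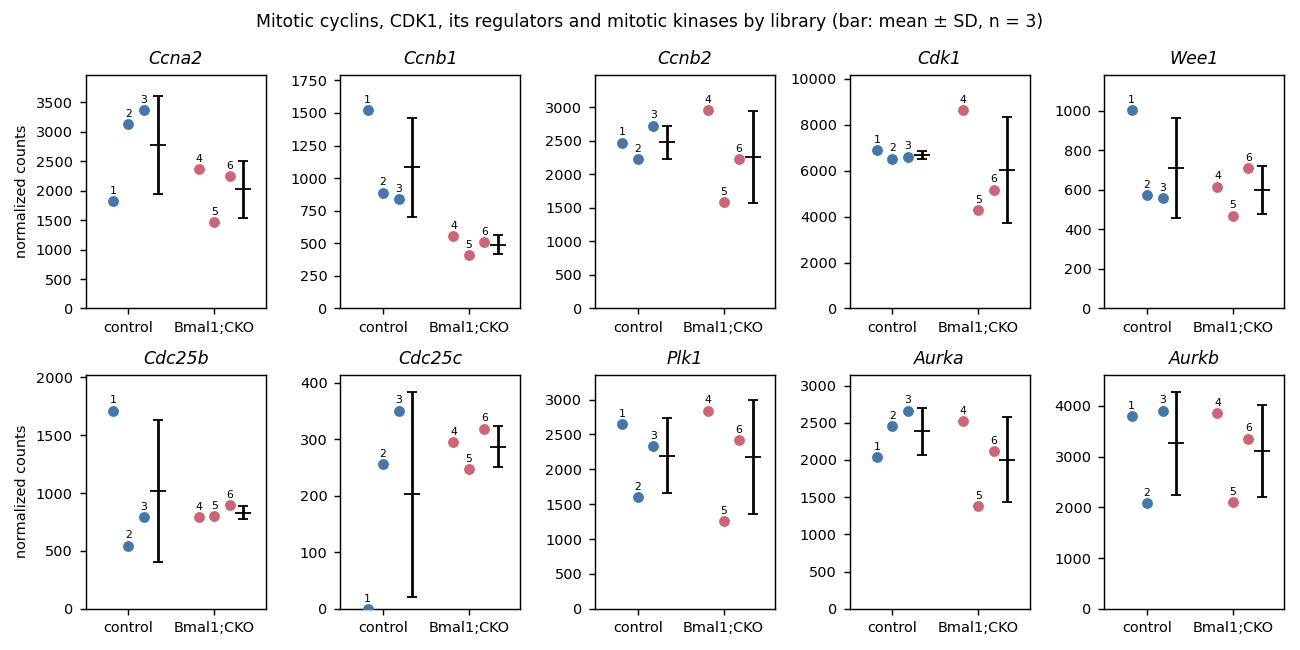
Normalized counts (vertical axis, from 0) of the 10 mitotic genes in each library, with control in blue and Bmal1;CKO in red, the library number above each point and the mean ± SD of 3 libraries as a black bar. Ccnb1 alone shows 3 Bmal1;CKO points (407 to 553) below all 3 control points (839 to 1521), and Cdc25c is at 0 in control library 1.

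Cyclin A2 acts in S phase and in early mitosis. Ccna2 (ENSMUSG00000027715, chromosome 3 of GRCm38, 36564865 to 36572150, reverse strand) had 1826, 3127 and 3365 normalized counts in the control libraries and 2359, 1463 and 2240 in the Bmal1;CKO libraries. Control libraries 2 and 3 were above all Bmal1;CKO libraries, but control library 1 was lower than 2 of them, so the groups overlapped. The means were 2773 ± 828 and 2021 ± 486 (SD, n = 3 each). The fold change was -0.44 (standard error 0.35, 95% interval -1.26 to 0.38, adjusted p = 0.883 by limma-trend). Among the 10 genes this was the next most negative after Ccnb1. The 3′ end of Ccna2 overlaps Exosc9 on the other strand. The use of strand in the counting is not given in the sources used here, and 464 of the 4079 stretches of 50 bases in Ccna2 transcripts also occur in those of Exosc9.

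Cyclin B1 is the main partner of CDK1 at mitotic entry. Ccnb1 (ENSMUSG00000041431, chromosome 13, 100778650 to 100786570, reverse strand) had 1521, 888 and 839 normalized counts in control and 553, 407 and 507 in Bmal1;CKO, from 393 to 1236 reads per library. Every Bmal1;CKO library was below every control library, and control library 1 was well above the other control libraries. The means were 1083 ± 380 and 489 ± 74.6 (SD, n = 3 each), a ratio of 0.451. The fold change was -1.10 (standard error 0.42, 95% interval -2.07 to -0.14). The unadjusted p was 0.0305 and the adjusted p was 0.883 by limma-trend. The two-sided exact permutation test gave p = 0.1, the lowest value that this design of 3 against 3 can reach. Without control library 1 the fold change was -0.83 and the unadjusted p by limma-trend 0.0595, and without Bmal1;CKO libraries 5 or 6 the unadjusted p was 0.0981 or 0.0672. Over all the alternatives the adjusted p of Ccnb1 lay between 0.359, in the limma-trend fit without control library 3, and 1.00.

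The mouse genome holds pseudogene copies of Ccnb1, and in 5 of the 6 libraries, all but control library 1, they took more reads than the gene itself. Of the 4393 stretches of 50 bases in Ccnb1 transcripts, 832 occur unchanged in Ccnb1-ps (processed pseudogene, chr7:42105899-42107185, reverse strand), 590 in Gm12856, 486 in Gm8416, 232 in Gm4870 and 58 in Gm7483. Of these copies, Gm7483 is annotated as an unprocessed pseudogene and the others as processed ones. The coding sequence of Ccnb1 has 1290 bases, and over 1287 aligned bases Ccnb1-ps was 99.2% identical to it. A processed copy has no introns, so that a read across an exon junction of the Ccnb1 mRNA can lie in 1 piece on the pseudogene. Of 7 coding junctions of Ccnb1, 3 had their 50 bases unchanged in Ccnb1-ps. They are shown here because these 50 bases occur in the pseudogene as an unbroken stretch and in the gene only split by an intron. A whole read can be longer than 50 bases, and matches of whole reads were not tested. They come from the GENCODE M21 transcript ENSMUST00000072119 of GRCm38 and are written 5′ to 3′, with the exon before the junction in lower case and the exon after it in capitals.
Ccnb1 exon 4 to exon 5: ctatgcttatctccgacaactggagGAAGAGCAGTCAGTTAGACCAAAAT
Ccnb1 exon 5 to exon 6: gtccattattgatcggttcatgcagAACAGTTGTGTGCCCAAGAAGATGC
Ccnb1 exon 7 to exon 8: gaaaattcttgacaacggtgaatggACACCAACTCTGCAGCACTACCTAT
The aligner named for these data is Bowtie, with no version given. The original Bowtie places reads in 1 piece, and what it did to reads of these junctions was not tested.

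The pseudogene did not follow the gene. Ccnb1-ps had 774, 1127 and 1613 normalized counts in control and 1624, 717 and 1122 in Bmal1;CKO, with overlapping groups. Control library 1, the highest in Ccnb1, had the lowest value of the control libraries in Ccnb1-ps. The fold change of Ccnb1-ps was -0.04 (standard error 0.45, adjusted p = 0.990 by limma-trend). Of the reads on Ccnb1 and its 5 annotated copies together, the gene itself took 62.9%, 42.1% and 31.0% in control and 23.1%, 33.1% and 28.2% in Bmal1;CKO. With the copies added, an alternative chosen after seeing the data, the sums were 2418, 2109 and 2704 in control and 2390, 1228 and 1797 in Bmal1;CKO. The groups then overlapped, with Bmal1;CKO library 4 between the control libraries. The means of the sums were 2410.2 ± 297 and 1805 ± 581 (SD, n = 3 each), and the fold change was -0.46 (standard error 0.33, 95% interval -1.23 to 0.31). The unadjusted p of the summed reads was 0.201 and the adjusted p 0.883 by limma-trend. The groups were thus separated in the gene alone and not in the sum of the gene and its copies.

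**Figure D2:**
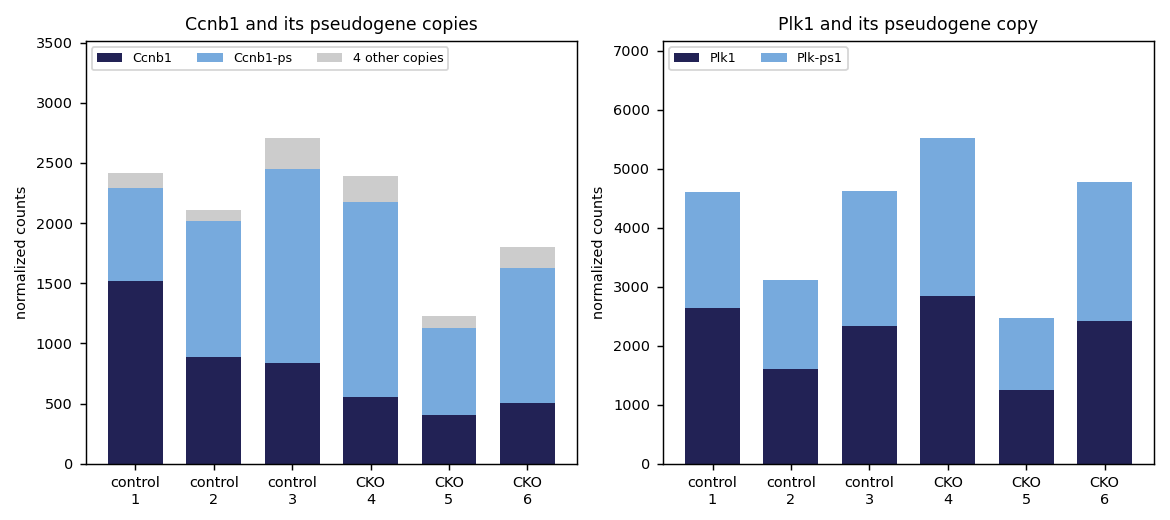
Normalized counts of Ccnb1 (left) and Plk1 (right) and of their annotated pseudogene copies, stacked for each of the 6 libraries. The Ccnb1 segment (dark) is lower in all 3 Bmal1;CKO libraries, whereas the full height of Bmal1;CKO library 4 (2390) lies within the control range of 2109 to 2704, and Plk1 and Plk-ps1 take near equal parts of each Plk1 bar.

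Cyclin B2 is the other mitotic B-type cyclin. Ccnb2 (ENSMUSG00000032218, chromosome 9, 70407692 to 70421547, reverse strand) had 2473, 2225 and 2727 normalized counts in control and 2955, 1588 and 2224 in Bmal1;CKO. Both the highest and the lowest value were in Bmal1;CKO libraries, 4 and 5. The means were 2475 ± 251 and 2256 ± 684 (SD, n = 3 each), and the fold change was -0.17 (standard error 0.31, 95% interval -0.90 to 0.55, adjusted p = 0.916 by limma-trend).

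The ratio of Ccnb1 to Ccnb2 within a library does not depend on the scaling between libraries. It was 0.615, 0.399 and 0.308 in control and 0.187, 0.256 and 0.228 in Bmal1;CKO. Each Bmal1;CKO library was below each control library. The difference of the log2 ratios was -0.93 (exact permutation test, two-sided, p = 0.1, the lowest value possible, and 0.5 after Benjamini-Hochberg adjustment over 5 ratios). With the pseudogene copies added to Ccnb1 the difference was -0.29, and the groups still did not overlap (exact permutation test, p = 0.1). The 4 other ratios overlapped between the groups.

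CDK1 is the catalytic subunit that both B-type cyclins bind. Cdk1 (ENSMUSG00000019942, chromosome 10, 69335146 to 69352938, reverse strand) had 6888, 6532 and 6613 normalized counts in control and 8636, 4281 and 5177 in Bmal1;CKO. The control libraries were close together, and the Bmal1;CKO libraries lay on both sides of them. The means were 6678 ± 186 and 6031 ± 2300 (SD, n = 3 each), and the fold change was -0.21 (standard error 0.30, 95% interval -0.92 to 0.49, adjusted p = 0.903 by limma-trend). Without Bmal1;CKO library 5 the fold change was 0.0022.

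WEE1 is the kinase that keeps CDK1 off. Wee1 (ENSMUSG00000031016, chromosome 7, 110122046 to 110143286, forward strand) had 1002, 571 and 558 normalized counts in control and 616, 469 and 708 in Bmal1;CKO. Control library 1 was the highest, and the other 5 libraries mixed. The means were 710.1 ± 252 and 598 ± 120.4 (SD, n = 3 each), and the fold change was -0.21 (standard error 0.44, 95% interval -1.23 to 0.81, adjusted p = 0.929 by limma-trend). Without control library 1 it was 0.06. An interval this wide bounds the size of any change in this clock-linked gene only loosely. The ratio of Wee1 to Cdk1 was 0.145, 0.0874 and 0.0844 in control and 0.0713, 0.110 and 0.137 in Bmal1;CKO, a difference of -0.0014 on the log2 scale (exact permutation test, p = 1). Pkmyt1, which codes for the related kinase MYT1 and also inhibits CDK1, had 997, 796 and 1838 normalized counts in control and 2180, 1483 and 1300 in Bmal1;CKO, a fold change of 0.51 (standard error 0.42). Leaving out control library 2 gave 0.25 for this gene, and leaving out control library 3 gave 0.86.

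The CDC25 phosphatases oppose WEE1. Cdc25b (ENSMUSG00000027330, chromosome 2, 131186949 to 131198497, forward strand) had 1714, 547 and 795 normalized counts in control and 793, 802 and 894 in Bmal1;CKO. The spread lay in the control libraries, and the Bmal1;CKO libraries were within it. The means were 1018 ± 615 and 830 ± 55.6 (SD, n = 3 each), and the fold change was -0.13 (standard error 0.48, adjusted p = 0.962 by limma-trend), or 0.33 without control library 1. The ratio of Wee1 to Cdc25b differed by -0.08 on the log2 scale (exact permutation test, p = 1).

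Cdc25c (ENSMUSG00000044201, chromosome 18, 34732993 to 34751533, reverse strand) had 0, 256 and 351 normalized counts in control and 295, 247 and 319 in Bmal1;CKO. Control library 1 had 0 reads, a count that allows up to 3 reads or 3.69 normalized counts, and the other 5 libraries lay close together. The fold change of 2.67 (standard error 2.11, 95% interval -2.22 to 7.57, adjusted p = 0.883 by limma-trend) rested on that library, and it was -0.07 without it. Other genes of low level were at 0 in control library 1 too, among them the progenitor marker Sfrp2, and that library had the fewest genes with a read (21598, against 22142 to 27904).

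PLK1 is the Polo kinase that activates CDC25 and recruits factors to centrosomes and kinetochores. Plk1 (ENSMUSG00000030867, chromosome 7, 122159439 to 122169873, forward strand) had 2644, 1605 and 2339 normalized counts in control and 2844, 1258 and 2422 in Bmal1;CKO. The 2 groups had near equal means of 2196 ± 534 and 2174 ± 822 (SD, n = 3 each). The fold change was -0.07 (standard error 0.39, 95% interval -0.98 to 0.85, adjusted p = 0.979 by limma-trend). Plk1 has a processed copy as well, Plk-ps1 on chromosome 5, 95.1% identical over 1781 aligned bases, in which 0 of 9 coding junctions of Plk1 were unchanged. Plk-ps1 had 1966, 1512 and 2289 normalized counts in control and 2674, 1207 and 2360 in Bmal1;CKO. Here gene and copy had the same order of libraries but for control library 1, and Plk1 took between 50.5% and 57.4% of the reads on both. With the copy added the fold change was -0.01.

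The Aurora kinases showed little difference between the groups' means against their spread. Aurka (ENSMUSG00000027496, chromosome 2, 172356190 to 172370535, reverse strand), the centrosomal kinase that activates PLK1, had 2042, 2452 and 2665 normalized counts in control and 2520, 1382 and 2116 in Bmal1;CKO. Its means were 2386 ± 316 and 2006 ± 577 (SD, n = 3 each), with a fold change of -0.29 (standard error 0.32, 95% interval -1.03 to 0.46, adjusted p = 0.888 by limma-trend). Only Bmal1;CKO library 5 lay outside the control range. Aurkb (ENSMUSG00000020897, chromosome 11, 69045647 to 69051664, forward strand), the catalytic subunit of the chromosomal passenger complex, had 3791, 2089 and 3906 normalized counts in control and 3859, 2105 and 3354 in Bmal1;CKO. All 3 Bmal1;CKO values lay within the control range, and the fold change was -0.06 (standard error 0.37, 95% interval -0.91 to 0.79, adjusted p = 0.979 by limma-trend). The ratios of Aurka to Aurkb and of Plk1 to Aurka differed by -0.22 and 0.22 on the log2 scale (exact permutation tests, p = 0.7 and 0.6).

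**Figure D3:**
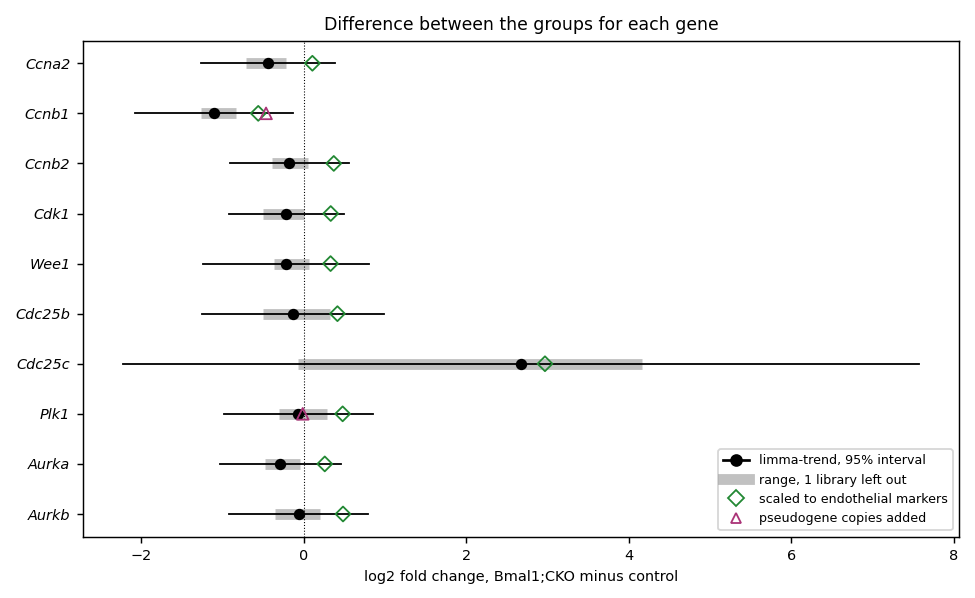
Log2 fold change (horizontal axis, Bmal1;CKO minus control) of each gene with its 95% interval from limma-trend, the range when 1 library is left out (grey), the value after scaling to endothelial markers (diamond) and, for Ccnb1 and Plk1, with pseudogene copies added (triangle). Only the interval of Ccnb1 (-2.07 to -0.14) leaves out 0, and 9 of the 10 diamonds lie above 0.

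In most of the 10 genes the lowest value lay in the same library. Bmal1;CKO library 5 had the lowest value of all 6 libraries in 7 of the 10 genes, namely Ccna2, Ccnb1, Ccnb2, Cdk1, Wee1, Plk1 and Aurka, and its median deviation from the mean of the libraries was -0.55 on the log2 scale. The other libraries had medians between 0.01 and 0.28. The share of all tested genes with their lowest value in library 5 was not counted, so this is not shown to be particular to the 10. The same library had the lowest level of endothelial markers, with a mean log2 level of 11.68 against 12.54 to 13.45 in the others, and the highest ratio of summed microglial to summed endothelial markers, 24.0 against 6.85 to 19.1. Without it 5 of the 10 fold changes were negative and 5 positive, with a median of -0.02. When each library was scaled to its endothelial markers, 1 of the 10 genes, Ccnb1 (-0.56, unadjusted p = 0.449 by limma-trend), had a negative fold change and 9 a positive one. Their median was then 0.35, while the same scaling moved the median of all genes to 0.64. Summed over the 10 genes, there were 65.4, 100.2 and 123 normalized counts per 1000 normalized counts of endothelial markers in control and 122, 124 and 81.1 in Bmal1;CKO. These groups overlapped. The part of endothelial content, microglial RNA or progenitor RNA in the values of the 10 genes was not tested.

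**Figure D4:**
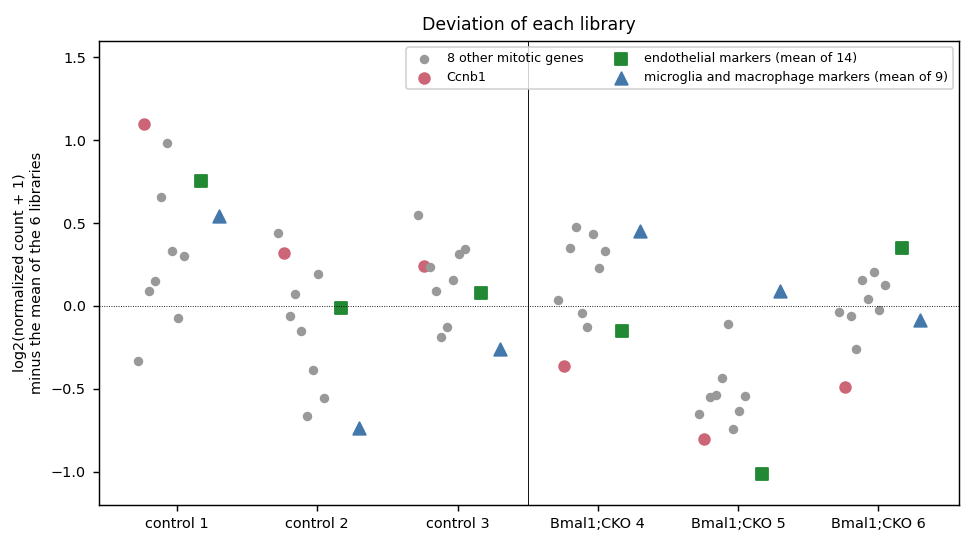
Deviation of each library from the mean of the 6 libraries on the log2(normalized count + 1) scale for Ccnb1 (red), the 8 other mitotic genes besides Cdc25c (grey), and the mean of the endothelial (green) and microglial (blue) markers. In Bmal1;CKO library 5 the grey points and the endothelial markers (-1.02) are all below 0, while Ccnb1 is also below 0 in Bmal1;CKO libraries 4 and 6.

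Levels between the genes were compared as normalized counts per kilobase of merged exons, averaged over the 6 libraries. Ccnb2 was the highest at 1545 ± 311 (SD, n = 6), followed by Cdk1 at 1288 ± 304, Aurkb at 1081 ± 294, Plk1 at 994 ± 282 and Aurka at 868 ± 184. Ccna2 had 587 ± 180, Cdc25b 248 ± 108, Wee1 191 ± 54.8 and Ccnb1 186 ± 96.6. Cdc25c was the lowest at 49.7 ± 25.6. Ccnb2 was above Cdk1, Aurka above Ccna2, and Ccnb1 above Cdc25c in 6 of 6 libraries. Wee1 was above Ccnb1 in 3 of 6, so the order of these neighbours was not resolved, and the other neighbours kept their order in 5 of 6. The low place of Ccnb1 is that of the gene without the reads on its copies. The place of Plk1 likewise leaves out the reads on Plk-ps1, as Plk1 took 50.5% to 57.4% of the reads on both. The order also depends on the length used, which was 4934 bases for Cdk1 and 1531 for Ccnb2.

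Genes of the G2 and M phases are known to be controlled through the CCAAT box and the CHR element. Promoters were searched for these and for the E-box. RefSeq promoters of GRCm38.p6, from 250 bases before to 50 after the start, were matched for 6 of the 10: Aurka, Ccnb1, Ccnb2, Cdc25b, Cdk1 and Plk1. Ccna2, Wee1, Cdc25c and Aurkb were not matched. The CCAAT box (CCAAT, either strand), bound by NF-Y, was in 6 of 6, against 37.4% of all 32851 promoters. The CHR element (TTTGAA, either strand), bound by the DREAM and MuvB complexes, was in 4 of 6, all but Ccnb1 and Cdc25b, against 17.9%. In Aurka and Plk1 its only match lay after the start, at bases 32 to 37 and 30 to 35. The canonical E-box (CACGTG), the motif of BMAL1 and CLOCK, was in 0 of 6, against 7.15%. In 4 of 6, Aurka, Ccnb1, Ccnb2 and Cdk1, 2 CCAAT boxes on the same strand began 31 to 33 bases apart, a spacing picked after the sequences were seen, which 0.794% of all promoters held. The upstream parts of Ccnb1, Ccnb2 and Cdk1 are shown because they pair the cyclin with separated groups with the most similar cyclin and their common kinase. They are written 5′ to 3′ on the strand of the gene, end where the annotated transcript begins or at the RefSeq start, and have CCAAT boxes (CCAAT, or ATTGG for the other strand) and CHR elements in capitals.
Ccnb1, chr13:100786571-100786736, reverse strand: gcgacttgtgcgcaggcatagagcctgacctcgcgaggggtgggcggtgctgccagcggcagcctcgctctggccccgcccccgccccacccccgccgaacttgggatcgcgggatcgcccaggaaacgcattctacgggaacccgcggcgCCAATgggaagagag
Ccnb2, chr9:70421555-70421804, reverse strand: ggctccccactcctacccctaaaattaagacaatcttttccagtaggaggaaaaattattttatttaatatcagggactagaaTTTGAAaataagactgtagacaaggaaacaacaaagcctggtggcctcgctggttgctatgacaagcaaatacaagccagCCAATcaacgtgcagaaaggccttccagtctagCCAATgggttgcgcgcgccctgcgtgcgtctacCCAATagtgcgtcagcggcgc
Cdk1, chr10:69352939-69353162, reverse strand: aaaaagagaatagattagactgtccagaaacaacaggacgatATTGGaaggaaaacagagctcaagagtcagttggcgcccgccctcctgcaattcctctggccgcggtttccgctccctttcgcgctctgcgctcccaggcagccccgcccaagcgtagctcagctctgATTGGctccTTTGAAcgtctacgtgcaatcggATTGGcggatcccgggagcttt
Counted back from the RefSeq start, the CCAAT boxes of Ccnb1 began at bases 99 and 67, those of Ccnb2 at 87, 54 and 21, and those of Cdk1 at 208, 80 and 48. The box of Ccnb1 at base 67 lies past the end of the printed stretch. So do the CHR elements nearest the start in Ccnb2 (bases 4 to 9) and in Cdk1 (bases -15 to -10). A match is a description of letters, and binding was not measured.

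The genes around the 10, in 6 lists of 95 genes, were read in the same fit. Of the 91 tested, 34 had a positive and 57 a negative fold change, and the median was -0.16. Scaled to the endothelial markers, 71 had a positive and 20 a negative one, and the median was 0.39, with that of all genes at 0.64. At an unadjusted p under 0.05 there were 5 of 91 (5.49%, against 4.92% of all genes), 1 higher and 4 lower. In 13 of 91 (14.3%, against 11.2%) the groups did not overlap, 3 higher and 10 lower. By limma-trend 0 reached an adjusted p under 0.05, and 0 did with edgeR, limma-voom or DESeq2. DESeq2 put 10 of the 91 at an unadjusted p under 0.05. In the limma-trend fit that count was 8, 2 and 10 without control libraries 1, 2 and 3, and 2 and 1 without Bmal1;CKO libraries 4 and 5.

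CDK1 partners, which hold further cyclins, kinases, CKS subunits and inhibitors of CDKs, had 10 of 13 genes tested, with 1 higher and 9 lower and a median of -0.30. Partners of the Aurora and Polo kinases had 14 of 15 tested, with 4 higher and 10 lower and a median of -0.18. Neither list had a gene at an unadjusted p under 0.05. The anaphase-promoting complex and genes of mitotic exit had 11 higher and 9 lower of 20 and a median of 0.10, close to that of all genes (0.11). The 16 transcription factors of the G2/M program had 8 higher and 8 lower (median -0.03). Foxm1, which drives transcription of the B-type cyclins, had 1320.2, 1083 and 1116 normalized counts in control and 1505, 795 and 1643 in Bmal1;CKO, a fold change of 0.10 with a standard error of 0.38.

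Genes of the G2 checkpoint and the Greatwall pathway had the lowest median, -0.50, with 6 higher and 11 lower of 17. Of these, 3 (17.6%, against 4.92% of all tested genes) had an unadjusted p under 0.05, all lower. Over all partner lists together the share was 5.49%. In these 3 genes the groups did not overlap, as in 4 of the 17 (23.5%, against 11.2% of all tested genes). Topbp1, the activator of the checkpoint kinase ATR, had 1225, 1220.3 and 1265 normalized counts in control and 553, 954 and 498 in Bmal1;CKO, a fold change of -0.95 (standard error 0.39). Its unadjusted p was 0.0416 and its adjusted p 0.883 by limma-trend. Ywhae, a 14-3-3 protein that holds phosphorylated CDC25 in the cytoplasm, had a fold change of -0.78 (standard error 0.30), and Fbxw11, a subunit of the ubiquitin ligase that degrades WEE1, one of -0.86 (standard error 0.34). Both had an adjusted p of 0.883 by limma-trend. Scaled to the endothelial markers, all with a negative fold change themselves, the fold changes were -0.40 for Topbp1, -0.24 for Ywhae and -0.31 for Fbxw11, with unadjusted p of 0.602, 0.684 and 0.598 by limma-trend.

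Proliferation markers went both ways. Of 14, 4 were higher and 10 lower (median -0.20). Mki67, the gene of the Ki-67 antigen, had 6095, 2750 and 3686 normalized counts in control and 4183, 4127 and 4622 in Bmal1;CKO, a fold change of 0.12 (standard error 0.33). Top2a, the topoisomerase that untangles chromosomes in mitosis, had 4394, 1485 and 1409 in control and 1291, 1036 and 1147 in Bmal1;CKO. Its groups did not overlap, and the fold change was -0.86 (standard error 0.48, adjusted p = 0.883 by limma-trend), or -0.33 without control library 1. The 2 genes at an unadjusted p under 0.05 (14.3% of the list, against 4.92% of all tested genes) belong to G1 and its end. They went in opposite directions. Ccnd1, cyclin D1, had 6954, 4193 and 5411 in control and 10294, 9748 and 7375 in Bmal1;CKO, a fold change of 0.74 (standard error 0.28). Ccne2, cyclin E2, had 193, 569 and 290.1 in control and 39.4, 98.5 and 135 in Bmal1;CKO, a fold change of -1.96 (standard error 0.80). Both had an adjusted p of 0.883 by limma-trend. Scaled to the endothelial markers, the fold change was 1.29 for Ccnd1 and -1.42 for Ccne2, with unadjusted p of 0.0356 and 0.223 by limma-trend.

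**Figure D5:**
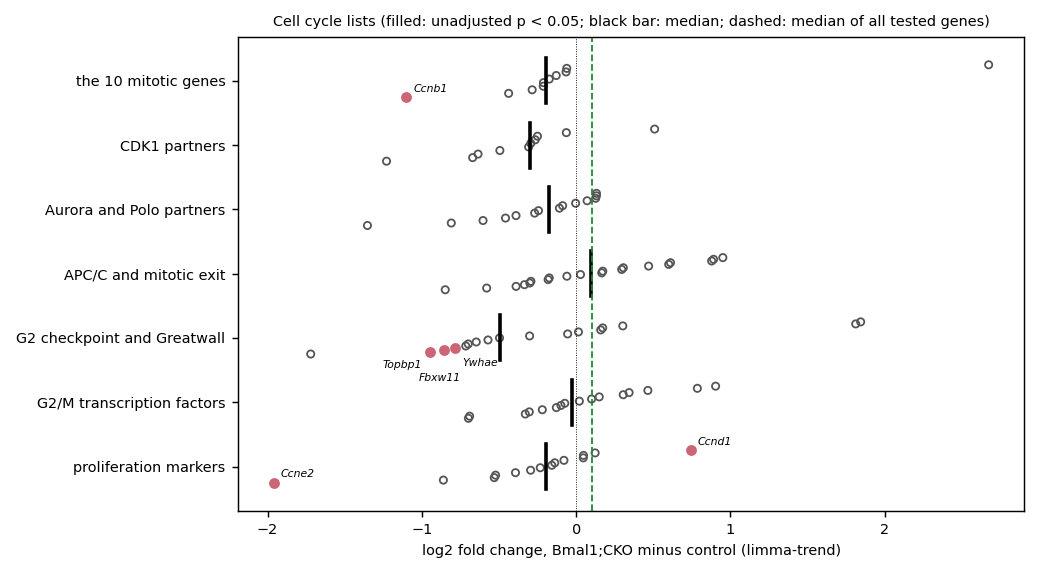
Log2 fold change (horizontal axis) of each tested gene in the 10 mitotic genes and 6 cell cycle lists, with filled red points for an unadjusted p under 0.05, a black bar for the median of each list and a dashed line for the median of all genes (0.11). The medians of the G2 checkpoint list (-0.50) and the CDK1 partners (-0.30) lie farthest from that line, and 6 points are red.

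Outside these lists, the genes whose profile over the 6 libraries was most like the mean standardized profile of the 10 were Mansc1 (Pearson r = 0.994), Tagln2 (0.982), Impa2 (0.976), Phf24 (0.969) and Nupl2 (0.966). The mean profile was itself lowest in Bmal1;CKO library 5 (-1.16). Genes picked for following that profile were therefore likely to be lowest there too, as all 5 were. Their coefficients were the highest among the tested genes outside the lists, over 6 libraries that share depth and cell composition. They are given as a description.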

How the data were processed

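RNA of sorted VECs was amplified (Smart v4), and poly-A libraries were made with Nextera XT and sequenced in pairs. Per the submitters' notes and the methods, the authors used FastQC, Trimmomatic, Bowtie, the mm10 (GRCm38) genome, featureCounts and DESeq2. The version of Bowtie and the use of strand are not given in the sources used here. The authors deposited a signal per gene and library, the count over the library's DESeq2 size factor. Multiplying by the size factors (0.711 to 1.40) gave whole reads for 100% of the values, within 0.01 read. The table also holds the authors' means, log2 fold changes, standard errors, test statistics and p-values, which were not used. The deposited start coordinates were moved by 1 base to count from 1.

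Genes that had 10 reads or more in 3 libraries or more were tested with limma-trend on log2(normalized count + 1), with Benjamini-Hochberg adjustment (R 4.3.3, limma 3.58.1). The recovered reads were tested with edgeR 4.0.16 and DESeq2 1.42.0 as alternatives. Single values were compared with two-sided exact permutation tests of 3 libraries against 3. The scripts were tested on simulated data. Column numbers of the table disagree with the sample names, so each column was used as a replicate of its genotype. Copies were found as GENCODE M21 transcripts that share at least 20 stretches of 50 bases. Limits from a count of 0 cover counting error only. The 10 genes, the gene lists and the tests were chosen with earlier results of these data known. Named beside the 10 were list genes at an unadjusted p under 0.05, Bmal1, Pkmyt1, Foxm1, Mki67, Top2a and the 5 genes most like the 10 in profile, and Sfrp2 was named after its value was seen.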

Additional observations from a re-analysis of the deposited data

How the results depend on the processing

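No paired analysis was possible because the columns of the table carry numbers that cannot be matched to the replicate numbers of the labels. With 3 libraries a group, the 95% intervals in the report give the precision of each fold change singly. They are not adjusted for the number of genes tested. That of Ccnb1 left out 0 while its adjusted p was 0.883 by limma-trend. In every fit run, 0 of the 10 genes had an adjusted p under 0.05. Other pseudocounts (0.5 and 10), the other filters on reads, edgeR, limma-voom and DESeq2 each left every negative fold change negative and Ccnb1 as the 1 gene at an unadjusted p under 0.05. The positive fold change of Cdc25c, 2.67 in the report, depended on the method. It was 0.49 and 0.50 with the edgeR fits, 0.51 with DESeq2 and 2.48 with limma-voom. With pseudocounts of 0.5 and 10 it was 3.01 and 1.58. The cause was not tested for any of the changes below, beyond what each alternative's construction shows.

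Scaling to endothelial markers turned the log2 fold change positive for Ccna2 (0.11), Ccnb2 (0.37), Cdk1 (0.33), Wee1 (0.33), Cdc25b (0.42), Plk1 (0.48), Aurka (0.26), Aurkb (0.48) and Bmal1 (0.36), which left 1 of the 10 genes negative, 0 at an unadjusted p under 0.05, and 2 of the 91 genes around them at that threshold, against 5 in the report. DESeq2 gave 10 of the 91. Adding the pseudogene copies gave 0 of the 10 at an unadjusted p under 0.05. With a pseudocount of 10 the log2 difference of Wee1 to Cdk1 was 0.00091.

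With 1 library left out at a time, between 5 and 9 of the 10 fold changes were negative, 0 to 1 of the 10 had an unadjusted p under 0.05 (0 without control library 1 or Bmal1;CKO libraries 5 or 6), and 1 (without Bmal1;CKO library 5) to 10 (without control library 3) of the 91 did. The fold changes ran from -0.39 to 0.056 for Ccnb2, -0.50 to 0.0022 for Cdk1, -0.36 to 0.062 for Wee1, -0.49 to 0.33 for Cdc25b, -0.070 to 4.16 for Cdc25c, -0.30 to 0.29 for Plk1, -0.35 to 0.20 for Aurkb, -0.49 to 0.029 for Bmal1, -0.10 to 0.43 for Foxm1 and -0.14 to 0.44 for Mki67. Those that stayed negative ran from -0.71 to -0.22 for Ccna2, -1.26 to -0.83 for Ccnb1 and -0.47 to -0.038 for Aurka, with the smallest size without Bmal1;CKO library 5 for Ccna2 and Aurka and without control library 1 for Ccnb1. The log2 differences ran from -0.21 to 0.26 for Wee1 to Cdk1, -0.27 to 0.15 for Wee1 to Cdc25b, -0.47 to 0.093 for Aurka to Aurkb and -0.014 to 0.48 for Plk1 to Aurka, and that of Ccnb1 to Ccnb2 stayed negative, from -1.16 to -0.66.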
